A study of Mus musculus with 4 samples.

Results

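The 10 genes described here make, break down, restrain and move the polyamines putrescine, spermidine and spermine: Odc1, Amd1, Srm, Sms, Sat1, Smox, Paox, Azin1, Oaz2 and Atp13a2. They were chosen by name for their place in this pathway, with earlier results of these data known. In the deposited table of 18674 gene names, 9 of them were matched by name. Oaz2 was matched by its RefSeq accession, because the table lists that transcript under the name Oaz2-ps. RNA from lumbar spinal cord was sequenced in 4 libraries, 1 per condition: WT mice given vehicle or SD, and G93A mice given vehicle or SD. G93A mice carry a mutant human SOD1 transgene (the H1 high-expresser strain, kept on a B6/SJLF1 background) and develop motor neuron disease, and WT mice lack the transgene. SD is spermidine, which is itself a product of the pathway, and vehicle is PBS in the labels and saline in the section on dosing. The labels give 30 days of treatment at 4 doses a week and the RNA methods an age of 100 days, while the dose of 5 mg/kg, injected, comes from the section on dosing, which describes mice treated up to a later age. The animals in the treatment work were male. The number of animals behind a library is not given in the sources used here, and the hybrid background means that animals can differ in more than the transgene.

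Polyamines are small positively charged molecules that bind RNA, DNA and ATP and are needed for translation. Ornithine decarboxylase (Odc1) makes putrescine from ornithine, and S-adenosylmethionine decarboxylase (Amd1) supplies the aminopropyl groups that spermidine synthase (Srm) and spermine synthase (Sms) add in turn. Breakdown runs through acetylation by spermidine/spermine acetyltransferase (Sat1) and oxidation by Paox, or through direct oxidation of spermine by Smox. Antizymes such as Oaz2 send ODC to the proteasome and block uptake when polyamines are plentiful, and the antizyme inhibitor Azin1 counters them. Much of this control acts on translation and protein stability, which RNA levels do not show.

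The promoter stretches of Sat1 and Odc1 are shown because these were the members at least 1.5-fold higher in G93A both under vehicle and under SD. They are RefSeq sequences of GRCm38.p6, written 5′ to 3′ on the strand of the gene and ending 1 base before its first annotated base, with capitals for the GC box GGGCGG read on both strands.
Sat1, chrX:155216450-155216699, minus strand: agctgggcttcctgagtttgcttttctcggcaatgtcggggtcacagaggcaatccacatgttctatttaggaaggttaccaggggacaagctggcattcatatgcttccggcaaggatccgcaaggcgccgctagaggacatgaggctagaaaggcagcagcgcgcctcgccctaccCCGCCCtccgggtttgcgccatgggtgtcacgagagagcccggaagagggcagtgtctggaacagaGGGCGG
Odc1, chr12:17544623-17544793, plus strand: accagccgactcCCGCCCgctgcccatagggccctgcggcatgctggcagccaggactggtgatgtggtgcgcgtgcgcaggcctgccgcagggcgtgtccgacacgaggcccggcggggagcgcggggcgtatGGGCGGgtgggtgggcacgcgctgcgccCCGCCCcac
The Sat1 stretch holds 2 GC boxes, which begin 72 and 6 bases before its end, and the Odc1 stretch holds 3, which begin 159, 37 and 9 bases before its end. The Sat1 stretch has 250 bases, while that of Odc1 has 171, because it stops before an annotated start that lies upstream of the RefSeq start. Over the full 250 bases upstream of the RefSeq start, which for Odc1 run past the printed stretch, a GC box was held by 9 of the 10 promoters listed for 8 of the members, against 32.7% of 32851 promoters. Srm and Azin1 had no entry. G and C made up 80.0% of these 250 bases in Odc1 and 59.6% in Sat1, against a median of 52.4% over all promoters. The other member promoters lay between 58.0% (Oaz2) and 75.2% (Sms), except another Sms promoter at 47.2%. The share with a GC box was not compared with promoters of like G and C content. The same windows were searched on both strands for the E-box CACGTG (found in Sms, and in 6.02% of all promoters), the TATA box TATAAA (in 0 members, 12.4%), the CCAAT box CCAAT (in Sms, 33.8%), the antioxidant response element TGACNNNGC (in Smox, 10.2%), the STAT site TTCNNNGAA (in 0 members, 7.02%) and the polyamine-responsive element TATGACTAA (in 0 members, 0.0944%). Such matches describe letters in a window and say nothing of whether a factor binds there.

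Values are RPKM, a read count divided by transcript length and by library depth, so that levels of different genes can be set side by side. The unit was inferred from the values. The number of reads behind each library is not given in the sources used here and could not be recovered from the values, so the counting error is unknown. The sum of RPKM lay between 376852 and 393328. Each condition has 1 library and no replicate, so the spread between animals is not known, and no difference was tested. A difference of at least 1.5-fold was counted, with no pseudocount, and was set beside the share that differed as much among the 12987 names averaging 1 RPKM or more (all names, below). The spinal cord Hox genes Hoxc8, Hoxa9, Hoxc9, Hoxc10 and Hoxd10 were present in all 4 libraries. Their sums were 61.0 and 63.2 RPKM in WT against 50.0 and 45.7 RPKM in G93A, 0.820 and 0.724 of the WT value, with Hoxc10 1.55-fold and 1.61-fold lower and Hoxd10 1.45-fold and 1.63-fold lower, and the part of this in the genotype folds was not tested. The 12 microglial markers summed to 153 and 131 RPKM in WT (vehicle, then SD) and to 1061 and 1108 RPKM in G93A (vehicle, then SD). Motor neuron markers (8 genes) summed to 1019, 987, 567 and 378 RPKM. Here and from here on, 4 values in a row give WT first and G93A second, with vehicle before SD in each. In whole cord, fewer cells of a type and less RNA per cell cannot be told apart.

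**Figure D1:**
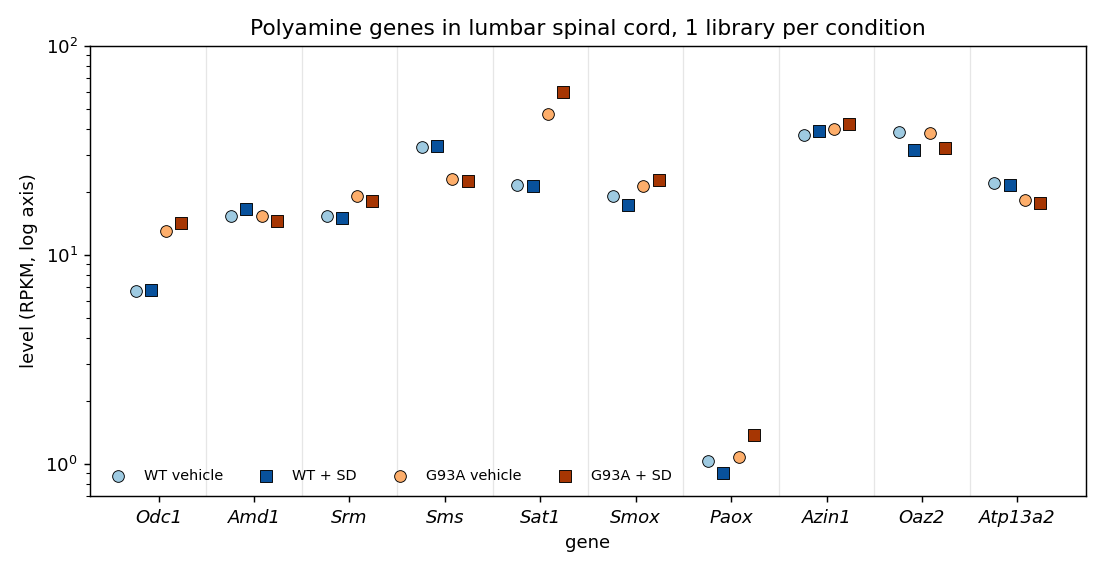
Level of each of the 10 genes (RPKM, log axis) in the 4 libraries, with circles for vehicle, squares for SD, blue for WT and orange to brown for G93A. Sat1 and Odc1 show the widest gap between genotypes, Sms lies lower in G93A, Oaz2 lies lower in the SD libraries, and Paox is the least abundant at 0.907 to 1.38 RPKM.

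All 10 genes were detected in every library. In WT vehicle the most abundant, per length of transcript, were Oaz2 (38.9 RPKM), Azin1 (37.3 RPKM) and Sms (32.9 RPKM), followed by Atp13a2, Sat1 and Smox between 19.1 and 22.2 RPKM. Amd1 and Srm were equal at 15.4 RPKM, Odc1 had 6.70 RPKM and Paox had 1.03 RPKM. In G93A + SD the order was led by Sat1 (60.1 RPKM), ahead of Azin1 (42.5 RPKM) and Oaz2 (32.6 RPKM), and Odc1 (14.2 RPKM) stood next to Amd1 (14.6 RPKM). Whether neighbours in these orders differ beyond the spread between animals cannot be said from 1 library each. The ratio of the highest to the lowest library was 2.83 for Sat1 and 2.11 for Odc1, larger than for 93.6% and 88.8% of 12982 names. It was between 1.13 (Amd1) and 1.53 (Paox) for the other 8.

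The first question was how the pathway differed between G93A and WT. Under vehicle, 2 of the 10 genes were at least 1.5-fold higher in G93A (13.5% of all names were) and 0 were at least 1.5-fold lower (4.68%). Under SD, 3 were at least 1.5-fold higher (16.3%) and 0 lower (8.12%). The genes past this fold were Sat1 and Odc1 in both pairs of libraries and Paox under SD. The median log2 fold of the 10 genes was 0.085 under vehicle and 0.20 under SD, beside 0.051 and 0.048 over all names. By any amount, 7 genes were higher (56.4%) and 3 lower (43.6%) under vehicle, and 7 were higher (55.1%) and 3 lower (44.9%) under SD. Both G93A libraries lay above both WT libraries for 6 of the 10 genes (43.7% of all names) and below both for 2 (32.6%). At 1.5-fold or more, they lay above both for 2 (11.0%) and below both for 0 (2.84%). These shares are near those of the whole table. The vehicle pair and the SD pair have no library in common, so each gives its own value of the genotype fold.

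**Figure D2:**
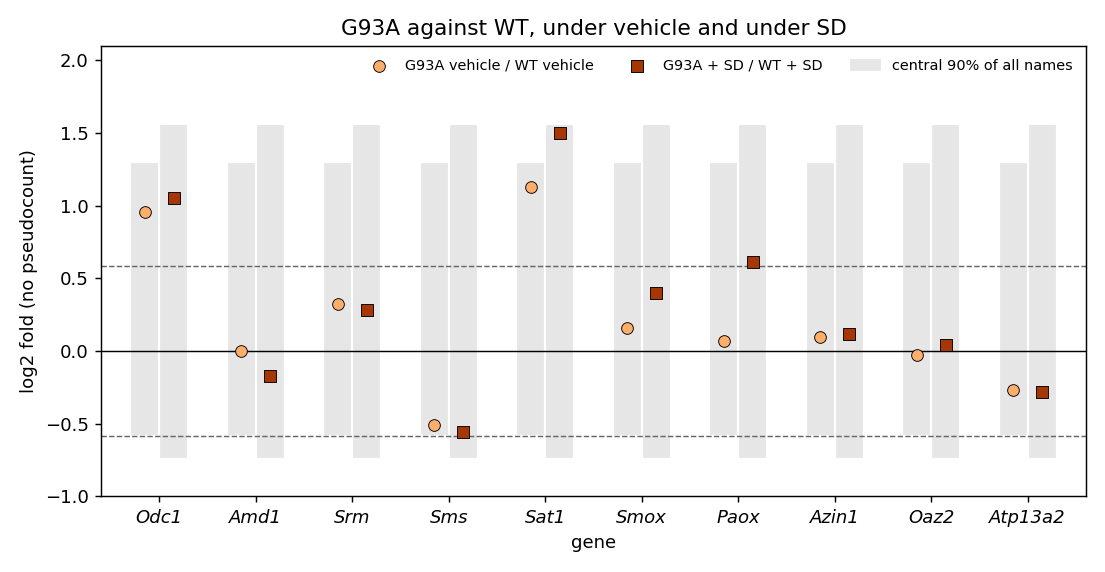
Log2 fold of G93A over WT for each gene under vehicle (circles) and under SD (squares), with grey bars for the central 90% of all names that averaged 1 RPKM or more and dashed lines at 1.5-fold. Sat1 and Odc1 lie above the dashed line in both pairs, Paox above it under SD, and Sms just inside the lower line in both.

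Among the genes of synthesis, Odc1 (chromosome 12, 17544794 to 17551505, plus strand, 12 exons in the listed transcript), which catalyses the first committed step, had 6.70 RPKM (vehicle) and 6.82 RPKM (SD) in WT, against 13.0 and 14.2 RPKM in G93A. The groups did not overlap, and the G93A libraries stood at about the same distance above WT with and without SD. G93A was 1.94-fold above WT under vehicle and 2.07-fold under SD, that is, log2 folds of 0.96 and 1.05. Of the 2156 windows of 53 bases in its transcript, 40.7% also occur in other annotated genes, 408 of them in the processed pseudogene Gm7993, and how such reads were assigned is not stated.

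Amd1 (chromosome 10, 40287458 to 40302186, minus strand), whose product is the other short-lived enzyme of synthesis, had 15.4, 16.5, 15.4 and 14.6 RPKM. The genotypes overlapped. The log2 fold of G93A over WT was 0.0009 under vehicle, which turned negative when the libraries were scaled to each other, and -0.17 under SD. The values of Amd2, 15.4, 16.5, 15.4 and 14.7 RPKM, are nearly the same. Of the 3152 windows of Amd1, 2688 occur in Amd2, so reads of the pair could be split between them in counting, and the level of Amd1 alone is uncertain.

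Srm and Sms, whose enzymes add the aminopropyl groups, differed from WT in opposite directions. Srm (chromosome 4, 148591503 to 148594993, plus strand) had 15.4 and 15.0 RPKM in the WT libraries and 19.2 and 18.2 RPKM in the G93A libraries. It was 1.25-fold higher in G93A under vehicle and 1.21-fold higher under SD, which is below the 1.5-fold that was counted. Sms (chromosome X, 157443855 to 157492287, minus strand) had 32.9 and 33.3 RPKM in WT and 23.1 and 22.6 RPKM in G93A. Both G93A libraries lay below both WT libraries, by 1.42-fold under vehicle and 1.47-fold under SD (log2 folds of -0.51 and -0.56). It passed 1.5-fold under SD only when the libraries were scaled, with a log2 fold of -0.63 after median-ratio scaling. Of its windows, 28.6% also occur in other genes, all of them shared with the processed pseudogene Sms-ps.

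Among the genes of breakdown, Sat1 (chromosome X, 155213132 to 155216449, minus strand, 6 exons in the listed transcript), the acetyltransferase that marks spermidine and spermine for export or oxidation, showed the largest values of the genotype fold among the 10. It had 21.6 RPKM (vehicle) and 21.3 RPKM (SD) in WT, against 47.3 and 60.1 RPKM in G93A. The WT libraries were nearly equal, both G93A libraries were higher, and G93A + SD was the highest. The fold of G93A over WT was 2.19 under vehicle and 2.83 under SD. The difference in level was 25.7 RPKM under vehicle and 38.9 RPKM under SD. Of its windows, 6.04% occur in other genes.

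Smox (chromosome 2, 131491496 to 131525922, plus strand), which oxidises spermine back to spermidine and releases hydrogen peroxide, had 19.1, 17.3, 21.3 and 22.8 RPKM as the mean of 9 listed transcripts. Both G93A libraries were above both WT libraries, though by 1.12-fold under vehicle and 1.32-fold under SD. The 9 transcripts gave nearly the same fold, from 1.10 to 1.13 under vehicle and from 1.31 to 1.34 under SD, and none of its windows occurs in another gene. Paox (chromosome 7, 140115799 to 140137224, plus strand), the peroxisomal oxidase that acts on acetylated polyamines, had 1.03, 0.907, 1.08 and 1.38 RPKM. G93A was 1.05-fold above WT under vehicle and 1.53-fold above it under SD. It is the least abundant of the 10, its fold under SD was below 1.5 with a pseudocount or after scaling, and 28.6% of its windows occur in other genes. It also shares 142 exon bases with Echs1 on the opposite strand, and no source says that strand was used in counting.

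The regulators differed little between genotypes. Azin1 (chromosome 15, 38487427 to 38519266, minus strand), which resembles ODC but lacks its activity and binds antizyme in its place, had 37.3, 39.3, 39.9 and 42.5 RPKM as the mean of 2 transcripts. G93A was 1.07-fold above WT under vehicle and 1.08-fold under SD. An antisense gene, Gm49077, shares 358 exon bases with it. Oaz2 (chromosome 9, 65668001 to 65690300, plus strand), an antizyme, had 38.9, 31.6, 38.2 and 32.6 RPKM. G93A over WT was 0.982 under vehicle and 1.03 under SD, and the latter turned below 1 when the libraries were scaled. Of its 1791 windows, 11.0% occur in other genes, 172 of them in the processed pseudogene on another chromosome whose name the table uses. Atp13a2 (chromosome 4, 140986873 to 141007330, plus strand), a lysosomal P5-type ATPase that exports polyamines from the lysosome to the cytosol, had 22.2, 21.6, 18.4 and 17.8 RPKM. Both G93A libraries were below both WT libraries, by 1.21-fold under vehicle and by 1.21-fold under SD, and none of its windows occurs in another gene.

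The second question was how the pathway differed after SD, its own product. In WT, 0 of the 10 genes were at least 1.5-fold higher (0.909% of all names were) and 0 were lower (1.36%). In G93A, 0 were higher (1.34%) and 0 were lower (1.04%). Folds of SD over vehicle ran from 0.814 to 1.07 in WT and from 0.854 to 1.28 in G93A, with median log2 folds of -0.029 and 0.030. By any amount, 4 genes were higher (54.9%) and 6 lower (45.1%) in WT, and 5 were higher (52.1%) and 5 lower (47.9%) in G93A. Over all names the median size of the log2 fold was 0.0839 in WT and 0.113 in G93A. The direction was opposite in WT and G93A for 5 of the 10 genes (45.8%). With 1 library per condition, a difference of any size cannot be told from differences between animals.

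**Figure D3:**
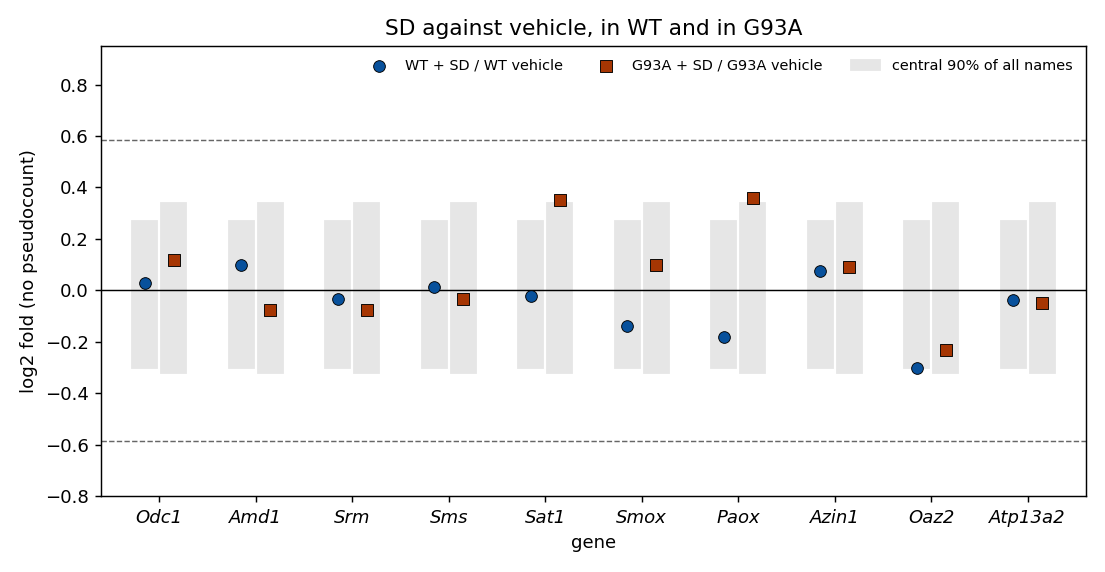
Log2 fold of SD over vehicle for each gene in WT (circles) and in G93A (squares), with grey bars for the central 90% of all names that averaged 1 RPKM or more and dashed lines at 1.5-fold. No gene reaches the dashed lines, Oaz2 is lower in both genotypes, and Sat1 and Paox in G93A stand at the upper edge of the grey bars.

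Oaz2 was the one member for which both SD libraries lay below both vehicle libraries, as they did for 6.74% of all names. It had 31.6 against 38.9 RPKM in WT, a fold of 0.814, and 32.6 against 38.2 RPKM in G93A, a fold of 0.854. Of all names, 1.35% had folds as low or lower in both genotypes. This gene was singled out after its values had been seen. No member had both SD libraries above both vehicle libraries, which 7.52% of all names had.

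Sat1, whose enzyme is known to be induced when polyamines are in excess, was not higher in WT + SD (21.3 RPKM) than in WT vehicle (21.6 RPKM). In G93A it was 1.27-fold higher with SD, 60.1 against 47.3 RPKM, and 4.90% of all names had a fold of this size or larger. Paox had the same pattern, 0.883-fold in WT and 1.28-fold in G93A, and so had Smox, 0.906-fold in WT and 1.07-fold in G93A. Lower with SD in WT and higher with SD in G93A was the direction of 21.5% of all names. Odc1 was 1.02-fold and 1.09-fold higher with SD in WT and G93A, and Azin1 1.05-fold and 1.07-fold. Amd1, Srm, Sms and Atp13a2 stayed between 0.949 and 1.07 times the vehicle level in both genotypes.

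Markers of cell types differed with genotype too. The sum of the 12 microglial markers was 6.92-fold higher in G93A under vehicle and 8.43-fold higher under SD, with 12 of 12 genes higher in both pairs and none at 0. For the 8 astrocyte markers the sum was 2.60-fold and 3.24-fold higher, with 6 and 7 genes higher, while the 8 markers of motor neurons summed to 0.556 and 0.383 of the WT value, with 7 of 8 lower in both pairs. A pair of genes carries much of each of these 2 sums. Without Gfap and Vim the other 6 astrocyte markers summed to 1.19 and 1.31 times WT, and to 1.10 times G93A vehicle in G93A + SD. Without Nefm and Nefh the other 6 motor neuron markers summed to 0.762 and 0.614 of WT, and to 0.732 of G93A vehicle in G93A + SD. Markers of other neurons (8 of 8 lower) summed to 0.625 and 0.536 of WT, and those of oligodendrocytes (7 genes, 6 and 7 lower) to 0.816 and 0.725. Between G93A + SD and G93A vehicle, where Sat1 was 1.27-fold higher, the astrocyte sum was 1.20-fold higher and the microglial sum 1.04-fold higher, and the motor neuron sum was 0.666 of that in G93A vehicle. Between WT + SD and WT vehicle, these sums had ratios of 0.960 for astrocytes, 0.857 for microglia and 0.969 for motor neurons. Red blood cell markers (3 genes) summed to 17.8, 35.7, 26.5 and 28.8 RPKM, Schwann cell markers (3 genes) to between 0.374 and 1.41 RPKM, and skeletal muscle markers (3 genes) to between 0.276 and 0.350 RPKM, with Myh4 at 0 in WT vehicle. The part that cell composition has in the values of the 10 genes was not tested.

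**Figure D4:**
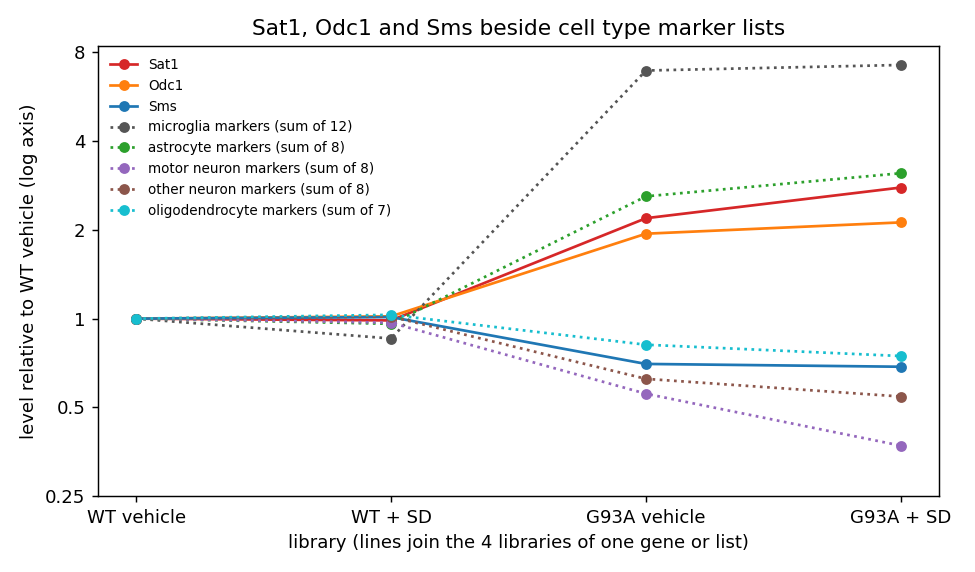
Level relative to WT vehicle (log axis) of Sat1, Odc1 and Sms (solid lines) and of the summed markers of 5 cell types (dotted lines) in the 4 libraries. Sat1 and Odc1 lie above 1 in G93A, as do the microglial and astrocyte sums. Sms lies between the sums of oligodendrocytes and of other neurons below 1, and all 3 genes stay near 1 in WT + SD.

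The genes most like Sat1 and Odc1 over the 4 libraries were found by the root mean square difference of centred log2 values, among 8846 other names with a mean of at least 5 RPKM. For Sat1 they were Mafk (3.60, 3.48, 7.84 and 9.67 RPKM), Tead1, Cp, Plce1 and Slc24a4, with differences of 0.0196 to 0.0380. Mafk encodes a small Maf transcription factor and Cp the ferroxidase ceruloplasmin. For Odc1 they were Actn1 (6.24, 6.22, 11.9 and 13.1 RPKM), Galnt6, Stat3, Npc2 and Cmbl, with differences of 0.0129 to 0.0289. Stat3, a transcription factor activated by cytokines, had 17.8, 17.6, 34.5 and 37.4 RPKM. Within a wider difference of 0.2 lay 239 names for Sat1 and 574 for Odc1.

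Another 38 genes of the wider pathway (arginine and methionine supply, transport, other oxidases, relatives of the members and the hypusine enzymes) were all in the table, 3 of them under another symbol, and 28 averaged 1 RPKM or more. Under vehicle, 4 of the 28 were at least 1.5-fold higher in G93A (13.5% of all names were) and 1 was at least 1.5-fold lower (4.68%). Under SD, 6 were higher (16.3%) and 2 lower (8.12%). Either scaling of the libraries left 2 higher under vehicle, without Sat2 (1.48-fold after median-ratio scaling) and Cav1 (1.49-fold). Under SD it took Atp13a4 (1.47-fold) below the line and Oaz3 (0.640-fold) past it. After SD, 0 of the 28 were at least 1.5-fold higher or lower in WT (0.909% and 1.36% of all names were) or in G93A (1.34% and 1.04%), which is near the share of all names. The median log2 fold of G93A over WT was 0.16 under vehicle and 0.059 under SD.

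**Figure D5:**
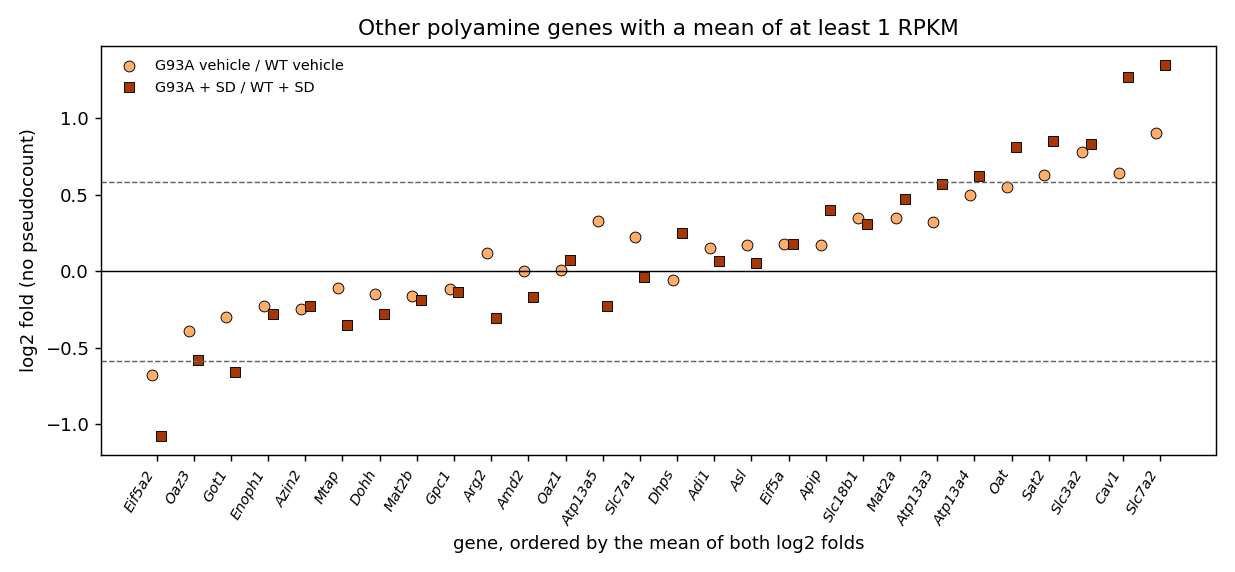
Log2 fold of G93A over WT under vehicle (circles) and under SD (squares) for the 28 other polyamine genes that averaged 1 RPKM or more, with dashed lines at 1.5-fold. Slc7a2, Cav1, Slc3a2 and Sat2 lie above the upper line in both pairs (Cav1 and Sat2 under vehicle only in the unscaled values, which are plotted), and Eif5a2 lies below the lower line in both.

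On the supply side, Slc7a2, a transporter of arginine and other cationic amino acids, had 12.4, 11.0, 23.2 and 27.9 RPKM, so that G93A was 1.87-fold and 2.54-fold above WT. Oat, which encodes ornithine aminotransferase, had 41.9, 38.5, 61.2 and 67.3 RPKM, or 1.46-fold and 1.75-fold. Got1, an aspartate aminotransferase that can also act in methionine salvage, went the other way with 150, 157, 122 and 99.0 RPKM and was 1.58-fold lower in G93A under SD.

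Among genes linked to transport, Slc3a2, the heavy chain of several amino acid transporters that also takes part in polyamine export, had 31.7, 30.8, 54.5 and 54.8 RPKM (1.72-fold and 1.78-fold). Cav1, the caveolar protein caveolin, had 8.79, 8.06, 13.7 and 19.4 RPKM (1.56-fold and 2.40-fold). Of the relatives of Atp13a2, Atp13a4 had 5.82, 6.11, 8.26 and 9.40 RPKM and Atp13a3 had 9.30, 9.97, 11.6 and 14.8 RPKM, both higher in each G93A library than in each WT library, where Atp13a2 was lower. G93A was 1.42-fold and 1.54-fold above WT for Atp13a4 and 1.25-fold and 1.49-fold for Atp13a3. Atp13a5 (1.64, 2.05, 2.06 and 1.75 RPKM) overlapped between genotypes.

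Among the relatives of the other members, Sat2, which resembles Sat1, had 5.97, 5.12, 9.22 and 9.23 RPKM, 1.55-fold and 1.80-fold above WT. Oaz1, the main antizyme, had 12.4, 12, 12.5 and 12.6 RPKM, and 53.1% of its windows occur in its pseudogene Oaz1-ps, so that its level is uncertain. Oaz3 had 4.50, 4.20, 3.43 and 2.81 RPKM, and Azin2, listed under the older symbol Adc, had 10.3, 9.94, 8.66 and 8.51 RPKM. Eif5a2, a relative of the translation factor gene Eif5a, whose product is modified with spermidine (hypusination), had 44.7, 49.0, 27.9 and 23.2 RPKM and was 1.60-fold lower in G93A under vehicle and 2.11-fold lower under SD.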

How the data were processed

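The authors deposited 1 table with 1 column per library (23750 rows of RefSeq transcripts) and 3 columns of ratios between libraries, which were left out. The unit of the deposited values, RPKM, was inferred from the values themselves, since neither the header nor the methods name a unit. According to the authors' methods, polyA RNA was read at 53 bp, STAR was the aligner (genome GRCm38), HTSeq the counter and Ensembl the source of genes, and no step from there to these values is stated.

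The value of a gene was the mean of its rows. A fold is the ratio of 2 libraries, with no pseudocount, and names with a mean of at least 1 RPKM gave the background. The members and lists were chosen with earlier results of these data known. Named are the members, other polyamine genes that passed 1.5-fold or are relatives of a member, and the 5 names most like each of the 2 members with the widest range. Positions, transcript lengths and shared windows came from GENCODE M21 and promoters from RefSeq, both GRCm38. Low values were searched for whole reads. On rows under 150 bases, 18 to 27 values per library were low, and 59.1% to 83.3% of them were whole multiples, within 0.05, of a common step. On long transcripts the most frequent low value was 216 such steps, which the stated read length of 53 bp does not account for, so no depth was derived. Shared windows use the stated length of 53 bases. Alternatives were 2 scalings, pseudocounts of 0.1 and 1 RPKM, the most abundant row of a name, 2-fold, and other filters on low values.

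Software was matplotlib 3.10.9, pandas 2.3.3 and numpy 2.4.6 under Python 3.11.15. The fold counts were tested on simulated data, which checks the calculation and not the error of a fold.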

Additional observations from a re-analysis of the deposited data

Results flagged for a closer look

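For 5 of the 10 genes the difference between SD and vehicle had opposite directions in WT and in G93A, as it had for 45.8% of all names with a mean of at least 1 RPKM. With 1 library per condition none of these differences was tested. The log2 fold in G93A minus that in WT was 0.54 for Paox, 0.37 for Sat1 and 0.24 for Smox, which were lower with SD in WT and higher in G93A. The value of Paox depends on its low level, since with a pseudocount of 1 RPKM its log2 folds were 0.20 in G93A and -0.088 in WT, against 0.34 and -0.022 for Sat1. It was -0.17 for Amd1 and -0.049 for Sms, which were higher with SD in WT and lower in G93A.

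The difference between G93A and WT had opposite directions under vehicle and under SD for Amd1 and Oaz2. The log2 fold under SD minus that under vehicle was -0.17 for Amd1 and 0.070 for Oaz2. Neither difference was tested. The fold of Amd1 under vehicle and that of Oaz2 under SD changed sign with the scaling of the libraries.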

How the results depend on the processing

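No paired analysis was made, because each condition has 1 library and the labels carry no replicate numbers. For the same reason no library could be left out. Of 200 log2 folds of the 10 genes under 5 alternatives each, 194 stayed on their side of 1.5-fold and 0 of the folds past it changed direction. The exceptions were all in G93A + SD against WT + SD. Paox lost 1.5-fold, with log2 folds of 0.54 after median-ratio scaling, 0.55 after scaling to equal sums, 0.56 with a pseudocount of 0.1 RPKM and 0.32 with 1 RPKM. Sms passed it, with -0.63 and -0.62 after the 2 scalings, which gives 1 member at least 1.5-fold lower. Among small folds, 2 of 40 changed sign under the scalings (Amd1 under vehicle and Oaz2 under SD). At 2-fold, 1 member was higher in G93A under vehicle and 2 under SD, beside 912 and 1168 of 12987 names.

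Of the other polyamine genes, 2 in place of 4 were higher in G93A under vehicle after either scaling, which took Sat2 and Cav1 below 1.5-fold. All names higher then numbered 1567 (median-ratio scaling) and 1580 (equal sums) of 12987. At 2-fold, 0 of the 28 were higher and 0 lower under vehicle, beside 912 and 81 of 12987 names. Under SD, 2 were higher and 1 lower, beside 1168 and 215 names. With no filter on low values, all 38 genes were counted, not only the 28. Under vehicle, 8 were then higher and 6 lower, beside 3782 and 1915 unfiltered names. Under SD, 8 were higher and 7 lower, beside 4341 and 2340. With SD against vehicle, 4 were higher and 1 lower in WT, beside 1341 and 1597. In G93A, 1 was higher and 6 lower, beside 1626 and 1366.

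Counts over all names moved by over 1.5 times without a filter, with 2-fold, with a mean of at least 5 RPKM and, for some counts, with a pseudocount of 1 RPKM. Over the alternatives the 1751 names higher in G93A under vehicle became 902 to 3782 and the 608 lower became 81 to 1915. Under SD, the 2113 higher became 1094 to 4341 and the 1054 lower 215 to 2340. With SD in WT, 118 higher became 29 to 1341 and 176 lower 54 to 1597, and in G93A, 174 higher became 42 to 1626 and 135 lower 40 to 1366. One of these alternatives, names above 0 in both libraries with no other filter, was added after seeing the data. The filters on low values also change how many names are counted, so these ranges are not over the same set of names. Depth is unknown, Paox has the lowest level of the 10 genes, and reads shared with pseudogenes or with a near-identical copy limit Amd1, Odc1, Sms and Paox.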

Other observations

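Of the other polyamine genes, 10 had a mean below 1 RPKM and entered none of the counts in the report, only those made with no filter on low values. Among them, Agmat, which encodes agmatinase, had 0.867, 0.809, 0.441 and 0.278 RPKM (WT before G93A, and vehicle before SD in each), and both G93A libraries were below both WT libraries. Aoc1, which encodes diamine oxidase, was listed at 0 in WT vehicle and at 0.00954 RPKM or less elsewhere. These genes are named after their values were seen, and values this low rest on few reads.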
